A study of Mus musculus with 10 samples.

Results

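Tumor macrophage growth and scavenger genes were followed in B16 tumors, a transplantable melanoma of C57BL/6 origin. The genes were Csf1, Il34 and Csf1r, which form the CSF1 axis, the scavenger receptor genes Mrc1, Msr1 and Cd163, and the lipid-associated macrophage genes Trem2, Apoe and Spp1. They were found by taking every probe set annotated to exactly 1 of these 9 symbols. This gave 17 probe sets of 8 genes, out of 18193 genes measured in all. Spp1, which encodes osteopontin, had no probe set of its own symbol in the annotation used and is not analysed here. RNA was profiled on 3′ expression arrays (1 array per tumor) in 5 tumors labelled Bach2-deficient and 5 tumors labelled wild type, both on the C57BL/6 background. Bach2 encodes a transcriptional repressor of lymphocytes. Whole tumors were dissociated and total RNA was extracted, so each value sums the melanoma cells and every other cell of the tumor. The labels give neither age nor sex. The deleted part of Bach2 is not named, nor whether the host, the tumor cells or both lacked the gene. Whether each tumor grew in a different animal is not stated either. The p-values set the difference between the groups against the spread among these samples. Some of that spread may be technical, so the p-values need not hold across animals.

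CSF1R is a receptor tyrosine kinase on which monocytes and macrophages depend for survival, growth and differentiation. Its ligands CSF1 and IL34 are secreted by stromal, epithelial and tumor cells. Scavenger receptors take up modified lipoproteins, glycoproteins and haemoglobin complexes, while TREM2 senses lipids and apolipoprotein E carries them, and these genes are widely used to describe macrophages in tumors.

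Csf1r and Msr1 rose in the Bach2-deficient tumors and did not overlap between the groups, and the other 6 measured members did not pass the test. The groups did not overlap for 18.9% of all genes (11.2% with the Bach2-deficient values higher). No member fell. A gene was said to rise or fall at an adjusted p under 0.05 in a limma fit over all genes, and 28.7% of the 18193 genes passed, with 16.3% rising and 12.4% falling. Of these calls 56.7% rose, but 37.5% with median centring of the arrays and 48.4% with repeated quantile normalization, and median centring moved the median change of all genes to -0.18. Read against this background, 2 of 8 members is a share close to that of all genes. At an unadjusted limma p under 0.05, 3 members were higher (Csf1 besides the 2) and 0 were lower. The members' median change was 0.32 on the log2 scale, Bach2-deficient minus wild type, beside -0.06 over all genes.

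Other features of the arrays moved with genotype. Array medians lay between 5.80 and 5.88 (log2), and their number limits the precision. Bach2 was read by 3 probe sets, of which 1436515_at fell (-1.05, limma adjusted p = 0.0330) and the other 2 did not pass (-0.35 and -1.07). A probe set outside the deleted part checks nothing. The spike controls with poly-A tails, which are bacterial RNAs, read 10.03 ± 0.106 on Bach2-deficient arrays and 12.1 ± 0.184 on wild-type arrays (log2, SD, n = 5 each), without overlap. Xist, which marks female cells, was high on Bach2-deficient replicate 2 (11.9) and low on the other Bach2-deficient arrays (4.76 to 6.61), and high on all wild-type arrays (11.4 to 12.2). Markers of T cells (6 of 6 measured rose, Cd8b1 by 4.71, with an array mean of 10.2 to 11.5 in Bach2-deficient and 6.70 to 8.57 in wild-type tumors), dendritic cells (4 of 5, Xcr1 by 1.12) and eosinophils (4 of 5, Siglecf by 3.83) were higher. Among the others, 1 of 4 neutrophil markers rose (Mmp8, 1.14), 3 of 7 fibroblast markers fell (Col1a2, -1.80), 1 of 6 endothelial markers rose (Pecam1, 2.00) and 1 fell (Cdh5, -0.66), 3 of 9 melanocyte markers fell (Oca2, -0.90), and 0 of 4 keratinocyte markers passed in limma (1, Krt5, at an unadjusted p under 0.05). The melanocyte marker mean, which checks the tumor label, was 11.7 to 12.4 in Bach2-deficient and 12.2 to 12.4 in wild-type tumors. Among the dimmest 30% of genes (mean under 4.98) were all 4 keratinocyte markers and 4 of the 6 endothelial markers (Cdh5 among them). So were 2 of the 7 fibroblast markers (Lum and Pdgfra, not called), the dendritic cell marker Xcr1 and the eosinophil marker Epx. The sizes given for Cdh5 and Xcr1 are therefore not exact. Fits with an Xist term and with the melanocyte marker mean as a covariate are given below. Beyond these, what the features contribute to the results on the members was not tested. Because the spike controls separate the groups fully, a difference that goes with them cannot be told apart from genotype on these arrays. Fewer cells of a type and less RNA per cell cannot be told apart in whole tumors.

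Csf1r, which encodes the CSF1 receptor, had log2 values of 11.62, 12.41, 12.48, 12.37 and 12.25 in the 5 Bach2-deficient tumors, against 9.75, 9.83, 10.64, 10.64 and 10.62 in the 5 wild-type tumors. Every Bach2-deficient tumor lay above every wild-type tumor, as for 11.2% of all genes, and replicate 1 was the lowest of its group on both sides. The mean was 12.2 ± 0.348 in Bach2-deficient and 10.3 ± 0.464 in wild-type tumors (SD, n = 5 each). The rise was 1.93 (SE 0.24, 95% interval 1.40 to 2.46), or 3.81-fold, with a limma adjusted p of 0.000483. The other probe sets of the gene gave the same picture. Probe set 1423593_a_at read 7.80, 9.36, 9.004, 9.15 and 8.99 in Bach2-deficient tumors, against 6.27, 6.28, 6.58, 7.09 and 6.97 in wild type. It rose by 2.22, and 1419873_s_at rose by 2.32 (limma adjusted p = 0.000782 and 0.00124 over the 34945 single-gene probe sets, of which 24.2% were called and 14.1% rose). Csf1r was called in each of the 19 alternative fits, with changes from 1.56 to 2.16. With the Xist term in the fit, Csf1r changed by 2.12. That value sets Bach2-deficient replicate 2 alone against wild type, since the other arrays of its group had low Xist. With the melanocyte marker mean as a covariate the change was 1.56 (limma adjusted p = 0.0338).

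The ligand genes did not pass. Csf1, the circulating and membrane-bound ligand, read 7.25, 8.31, 8.81, 8.09 and 8.93 in Bach2-deficient tumors, against 7.25, 6.91, 7.47, 7.88 and 7.93 in wild-type tumors. Of the Bach2-deficient tumors, 4 lay above all wild-type tumors, and replicate 1 lay among them. The difference was 0.79 (SE 0.32, 95% interval 0.08 to 1.5003, limma adjusted p = 0.0913). All 4 probe sets of Csf1 had a positive difference, from 0.25 to 0.79, and none passed in limma. The 2 that differed least, 1425154_a_at and 1425155_x_at, read 6.71 ± 0.403 and 6.51 ± 0.475 in Bach2-deficient tumors, and 6.42 ± 0.532 and 6.26 ± 0.550 in wild type (SD, n = 5 each). Without Bach2-deficient replicate 1 the difference in Csf1 was 1.05 and passed (limma adjusted p = 0.0117), and as the mean of its probe sets it was 0.46 (adjusted p = 0.149). Il34, which encodes the second ligand, read 3.99, 3.80, 3.61, 3.90 and 3.77 in Bach2-deficient tumors, against 3.82, 4.04, 3.78, 3.84 and 3.87 in wild type. All 10 values were below 4.98, the cut for the dimmest 30% of genes. No detection calls were used, so these values are not shown to be above background, and the difference of -0.06 (SE 0.10) is no measure of the ligand's change.

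**Figure D1:**
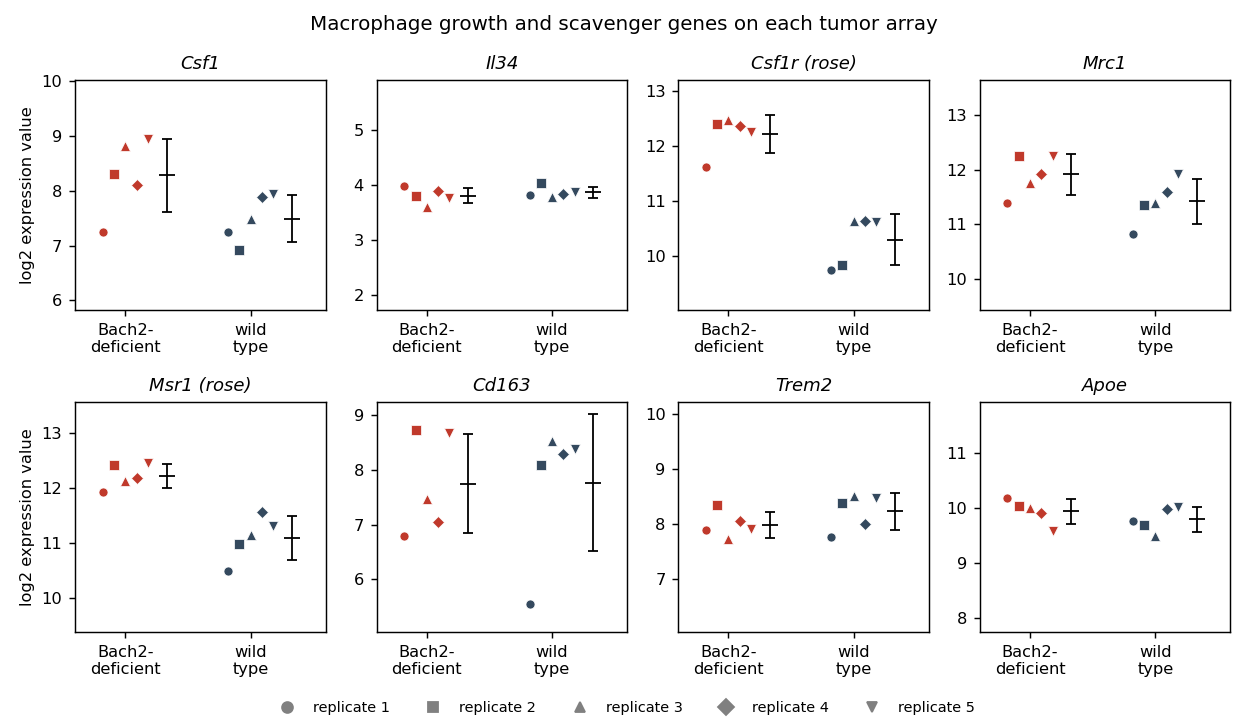
Log2 expression value (vertical axes, each spanning the same number of log2 units) of the 8 measured genes on every array, with Bach2-deficient tumors at the left in red and wild-type tumors at the right in dark blue; marker shapes give the replicate number, and bars show the mean ± SD (n = 5 each). Csf1r and Msr1 separate the groups, Csf1 and Mrc1 overlap, and Cd163 shows the widest spread, with wild-type replicate 1 at 5.56.

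Among the scavenger receptors, Msr1, the class A receptor for modified lipoproteins, read 11.93, 12.41, 12.12, 12.18 and 12.45 in Bach2-deficient tumors, against 10.49, 10.98, 11.14, 11.55 and 11.30 in wild-type tumors. The groups did not overlap, as for 18.9% of all genes (11.2% with the Bach2-deficient values higher). Msr1 rose by 1.13 (SE 0.19, 95% interval 0.70 to 1.549), or 2.18-fold, with a limma adjusted p of 0.00206. This is its brightest probe set and the one with the smallest change. The other 3 rose by 1.70, 1.76 and 1.88 (limma adjusted p from 0.000976 to 0.00597), and none of the 4 overlapped between the groups, which held with Bach2-deficient values higher for 9.81% of all probe sets. Probe set 1425435_at, the dimmest, read 6.78, 8.396, 7.77, 8.08 and 7.94 in Bach2-deficient tumors, against 5.01, 6.25, 5.26, 6.57 and 6.48 in wild type. Msr1 changed by 1.32 with the Xist term, a value that again rests on Bach2-deficient replicate 2 alone. With the melanocyte covariate the change was 1.01 and did not pass (limma adjusted p = 0.0866). The covariate was itself lower on average in the Bach2-deficient tumors, and with it 483 of all genes rose, in place of 2962.

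Mrc1, the macrophage mannose receptor gene, read 11.39, 12.25, 11.75, 11.91 and 12.25 in Bach2-deficient tumors, against 10.82, 11.36, 11.39, 11.60 and 11.92 in wild-type tumors. The groups overlapped, with Bach2-deficient replicate 1 at the level of wild-type replicates 2 and 3. The difference was 0.49 (SE 0.22, 95% interval -0.01 to 0.99, limma adjusted p = 0.126), and the gene has a single probe set here. It passed with array weights (0.61, limma adjusted p = 0.0405). Cd163, the receptor for haemoglobin bound to haptoglobin, read 6.80, 8.72, 7.47, 7.05 and 8.68 in Bach2-deficient tumors, against 5.56, 8.08, 8.53, 8.28 and 8.38 in wild-type tumors. Both groups spread over more than 1 log2 unit, with an SD of 0.903 in Bach2-deficient and 1.25 in wild-type tumors (n = 5 each). The difference of -0.02 had a 95% interval from -1.37 to 1.33 (limma adjusted p = 0.984), so changes of either sign up to that size are not excluded. Its sign turned with the array left out or the term added, and none of these passed in limma. The difference ran from -0.57 without wild-type replicate 1 to 0.95 with the Xist term, which rests on Bach2-deficient replicate 2 alone.

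The lipid-associated genes lay at like levels in both groups. Trem2, a lipid-sensing receptor gene, read 7.89, 8.35, 7.74, 8.06 and 7.90 in Bach2-deficient tumors, against 7.77, 8.38, 8.52, 7.996 and 8.49 in wild-type tumors. The groups overlapped, and the difference was -0.24 (SE 0.17, 95% interval -0.63 to 0.14, limma adjusted p = 0.310). Its second probe set, 1421226_at, was dim, at 4.00 ± 0.143 in Bach2-deficient and 4.12 ± 0.220 in wild-type tumors (SD, n = 5 each). Apoe, the lipid carrier gene, read 10.18, 10.03, 9.999, 9.92 and 9.58 in Bach2-deficient tumors, against 9.77, 9.68, 9.49, 9.99 and 10.02 in wild-type tumors. The groups overlapped here too, and the difference was 0.15 (SE 0.14, 95% interval -0.16 to 0.46, limma adjusted p = 0.451). The sign for Apoe turned with repeated quantile normalization (-0.01). That for Trem2 turned with the Xist term (0.12, from Bach2-deficient replicate 2 alone), while the melanocyte covariate gave -0.50 for Trem2. None of these passed in limma. The intervals of both genes leave out a change as large as that of Csf1r in either direction. Macrophages share Apoe with other cells of a melanoma, so its level need not follow macrophages alone.

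**Figure D2:**
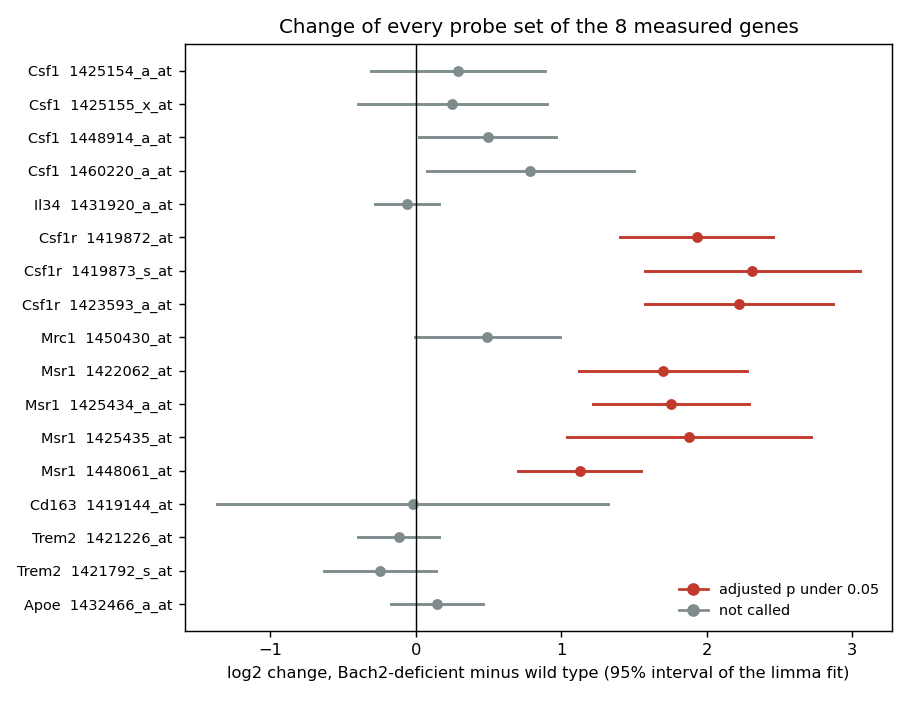
Log2 change, Bach2-deficient minus wild type (horizontal axis), of each of the 17 probe sets, with the 95% interval of the limma fit over all single-gene probe sets; red marks an adjusted p under 0.05. The 7 called probe sets are the 3 of Csf1r and the 4 of Msr1, and the 4 of Csf1 all lie to the right of 0 without passing.

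The other 7 measured members, Msr1 among them, were then set against Csf1r on the same array. For each of the other 7 genes the per-array log2 difference to Csf1r was taken and compared between the groups with a 2-sided exact permutation test (smallest possible p = 0.00794), adjusted over the 7 differences. All 7 differed. Mrc1 minus Csf1r averaged -0.32 ± 0.283 in Bach2-deficient and 1.12 ± 0.304 in wild-type tumors (SD, n = 5 each), a difference of -1.44 (exact p = 0.00794, adjusted p = 0.00926). The groups did not overlap, and Mrc1 changed less than Csf1r on these arrays. Trem2 minus Csf1r differed by -2.18, Apoe minus Csf1r by -1.78 and Csf1 minus Csf1r by -1.14, each without overlap (exact p = 0.00794, adjusted p = 0.00926). Cd163 minus Csf1r differed by -1.95 with overlapping groups (exact p = 0.0238, adjusted p = 0.0238). Msr1 minus Csf1r, both of which rose, differed by -0.80 without overlap (exact p = 0.00794, adjusted p = 0.00926), and by -0.54 as the mean of probe sets. The difference for Il34 (-1.99) holds only the rise of Csf1r, since Il34 stayed dim. Csf1r rose most of the members (1.93), so a member that stayed near level must differ from it by about that much. The calls for Trem2, Apoe and Cd163, with changes of -0.24, 0.15 and -0.02, therefore mainly restate the rise of Csf1r. Since each probe set has its own affinity and background, fold changes of different genes can be matched only roughly.

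A second yardstick was a set of 12 measured monocyte and macrophage markers that holds none of the members. Of these, 11 rose, with a median of 1.61. The mean of the markers read 10.7 to 11.5 in Bach2-deficient and 8.97 to 10.3 in wild-type tumors, without overlap, and none of the 12 was in the dimmest 30%. Whether macrophages alone account for the rise of the markers was not tested. Ccr2, the chemokine receptor of recruited monocytes, rose by 1.59 (SE 0.20, limma adjusted p = 0.000583). The marker mean rose by 1.59, so a gene that stayed level must be lower relative to it by about that much, as for Trem2 and Apoe. Relative to this mean, Mrc1 was lower by -1.10, Trem2 by -1.83 and Apoe by -1.44 in Bach2-deficient tumors. None of these 3 overlapped between the groups (exact permutation p = 0.00794, adjusted over 8 differences p = 0.0159). Mrc1 minus the marker mean ran from 0.22 to 0.75 in Bach2-deficient tumors, against 1.54 to 1.85 in wild-type tumors. Csf1r kept pace with the markers or ran slightly ahead of them. It stood at 0.88 ± 0.081 above the marker mean in Bach2-deficient and 0.54 ± 0.364 in wild-type tumors (SD, n = 5 each), a difference of 0.34 with overlapping groups (exact p = 0.0873, adjusted p = 0.0873). Csf1 (-0.80), Cd163 (-1.61) and Msr1 (-0.46) had overlapping groups (exact p = 0.0238, adjusted p = 0.0272). With 1 array left out their differences kept a like size, and each was called in 3 of 10 such tests, with adjusted p up to 0.0544. For Msr1 the value moved with the probe sets and the yardstick, to -0.035 when probe sets were averaged (adjusted p = 0.730) and to -0.75 against the median of the markers (adjusted p = 0.0106). Against that median Csf1r differed by 0.06 (adjusted p = 0.706), but by 0.51 from the marker mean when probe sets were averaged (exact permutation, adjusted p = 0.0106).

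**Figure D3:**
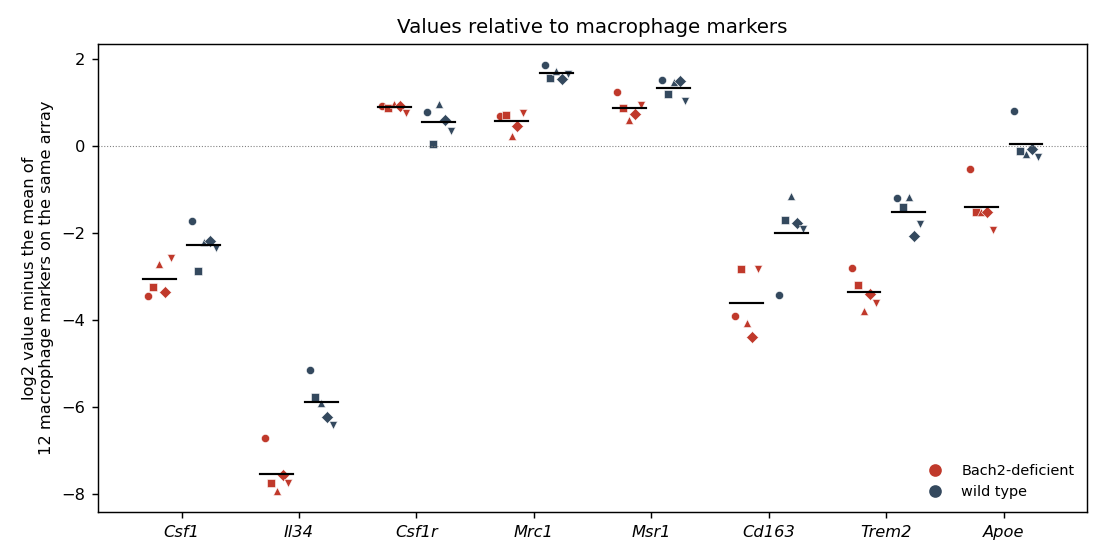
Log2 value of each gene minus the mean of 12 monocyte and macrophage markers on the same array (vertical axis), by gene; red symbols at the left of each pair are Bach2-deficient tumors, dark blue symbols at the right are wild-type tumors, shapes give the replicate number as in the plot of log2 values, and black lines are means (n = 5 each). Mrc1, Trem2 and Apoe lie lower in Bach2-deficient tumors without overlap, while Csf1r overlaps. A gene that stayed level lies lower here by the markers' rise. Il34 was dim in both groups, so its points show only the markers' rise, and heights of different genes are not comparable.

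Related genes were read from lists. Of 10 measured colony-stimulating factor and related growth factor genes, 5 rose and 1 fell, with a median of 0.83. Csf2rb and Csf2ra, the chains of the receptor for GM-CSF, rose by 1.94 and 1.35 (SE 0.31 and 0.23). Csf2rb read 11.7 to 12.7 in Bach2-deficient tumors, against 9.58 to 11.004 in wild-type tumors. Ptprz1, a receptor phosphatase that also binds IL34, fell by 0.83 (limma adjusted p = 0.0316). Of 11 macrophage transcription factor genes, 10 rose, with a median of 1.68. Irf8, which directs monocyte and dendritic cell fate, rose by 2.94, and Spi1, which encodes PU.1, a factor that acts on Csf1r and many other myeloid genes, rose by 1.92. Spi1 read 7.49, 8.53, 8.41, 8.52 and 8.10 in Bach2-deficient tumors, against 5.87, 6.38, 5.85, 6.38 and 6.97 in wild-type tumors, with no overlap.

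Of 18 further scavenger and phagocytic receptor genes, 5 rose and 2 fell, with a median of 0.34, so most did not pass. Olr1, a receptor for oxidised lipoprotein, rose by 3.63, and Clec7a, the beta-glucan receptor dectin, rose by 1.91. Clec7a read 12.2 to 12.5 in Bach2-deficient tumors, against 9.34 to 10.9 in wild type. Colec12 (-0.59) and Scara5 (-0.82) fell at means under 4.98 in both groups, so the sizes are not exact. Of 16 genes used to describe alternatively activated and resident-like macrophages, 9 rose and 4 fell, with a median of 1.06. Tgfbi, a matrix protein gene, rose by 1.92 and the chitinase-like gene Chil3 by 1.68. Gas6, a ligand of the phagocytic receptor AXL, read 5.89 to 6.43 in Bach2-deficient tumors, against 7.17 to 8.13 in wild type, and fell by 1.43. Lyve1, a hyaluronan receptor of resident macrophages and lymphatic vessels, fell by 1.66 (limma adjusted p = 0.00132).

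Of 10 measured TREM receptor and signalling genes, 7 rose and 3 did not pass, with a median of 1.91. Hcst, which encodes the adaptor DAP10, rose by 2.62 and the phospholipase gene Plcg2 by 2.24, both without overlap, whereas Trem2 itself did not pass. T cell markers rose too (median 3.04), and which cells carry the rises of this list was not tested. Tyrobp, the adaptor through which TREM2 signals, rose by 1.02 (limma adjusted p = 0.00115); it is named for that role and not by the rule for named genes. Of 19 measured genes of the lipid-associated programme, 7 rose and 1 fell, with a median of 0.33. Cst7, a cystatin gene, rose by 3.48 and the galectin gene Lgals3 by 0.69. Cytotoxic lymphocytes express Cst7 too. Fabp4, a fatty acid carrier, fell by 0.82, reading 9.57 to 10.05 in Bach2-deficient tumors, against 10.13 to 10.9998 in wild type. Of 8 measured apolipoprotein E receptor and apolipoprotein genes, 2 rose (Sorl1 by 2.40 and Apod by 1.80) and 3 fell (Clu, -1.24, Lrp8, an apolipoprotein E receptor gene, -0.69, and Apoa1, -0.36), with a median of -0.25. Of 13 osteopontin receptor and SIBLING family genes (SIBLING: the mineral-binding protein family of osteopontin), 2 rose, the integrin genes Itga4 (1.29) and Itga5 (0.59), and 2 fell, Dspp (-0.44) and Ibsp (-0.42). Dspp was under the dim level in both groups, so its size is not exact, and Ibsp lay close to it. Their median of 0.09 turned to -0.03 with median centring. The share of all genes called was 28.7%, and no test of a whole list was run.

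**Figure D4:**
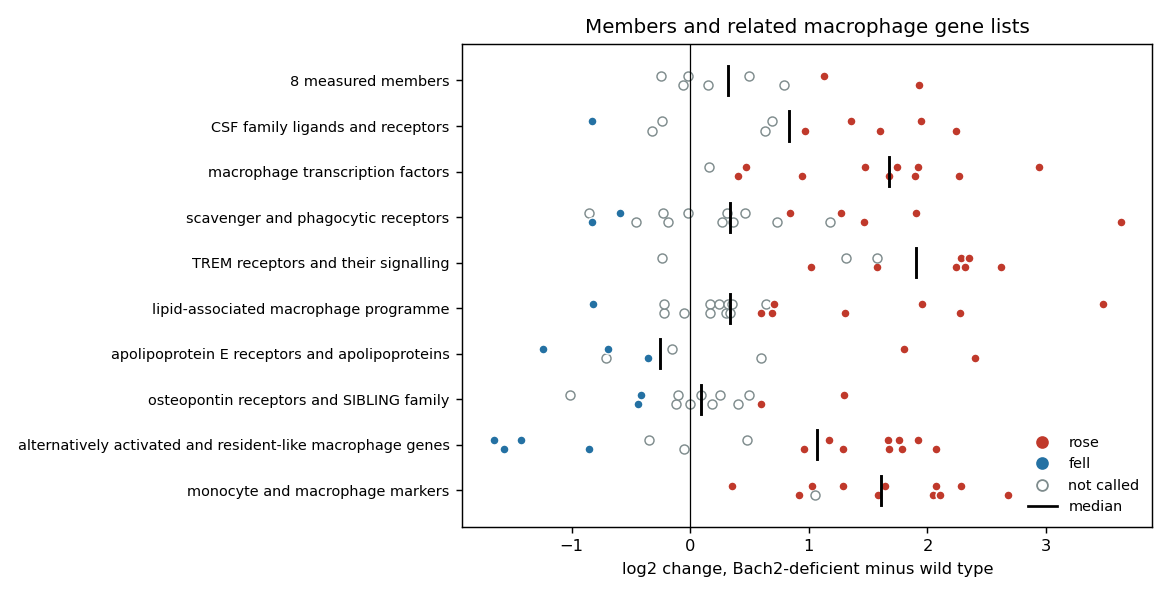
Log2 change, Bach2-deficient minus wild type (horizontal axis), of every measured gene of the member set, of 8 related lists and of the macrophage marker list; red points rose, blue points fell, open points were not called, and black bars are medians. The medians run from -0.25 for the apolipoprotein E receptors and apolipoproteins to 1.91 for the TREM receptors and their signalling, with the 8 measured members at 0.32.

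Spi1 rose while the receptor genes Mrc1, Cd163 and Trem2 did not pass, so the 250 bases before the start of these 3 receptor genes are shown for the core of the PU.1 motif, GAGGAA. The sequences are from RefSeq on build GRCm38.p6, read 5′ to 3′ along the gene, and capitals mark a match on either strand.
Mrc1, chr2:14229164-14229413, plus strand: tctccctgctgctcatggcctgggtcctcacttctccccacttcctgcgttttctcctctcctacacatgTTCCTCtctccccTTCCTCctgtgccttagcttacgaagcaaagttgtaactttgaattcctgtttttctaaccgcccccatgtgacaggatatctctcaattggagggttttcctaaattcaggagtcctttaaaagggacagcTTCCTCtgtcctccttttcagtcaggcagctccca
Cd163, chr6:124304401-124304650, plus strand: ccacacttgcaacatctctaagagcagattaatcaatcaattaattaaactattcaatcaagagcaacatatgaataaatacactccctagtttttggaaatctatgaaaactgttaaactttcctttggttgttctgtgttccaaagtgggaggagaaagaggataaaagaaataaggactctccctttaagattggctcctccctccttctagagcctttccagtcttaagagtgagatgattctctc
Trem2, chr17:48346151-48346400, plus strand: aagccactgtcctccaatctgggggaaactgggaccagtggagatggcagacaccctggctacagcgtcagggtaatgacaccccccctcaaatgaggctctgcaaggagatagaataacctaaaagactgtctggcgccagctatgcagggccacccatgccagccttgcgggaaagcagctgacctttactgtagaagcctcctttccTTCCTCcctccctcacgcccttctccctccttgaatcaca
The Mrc1 stretch held 3 matches, all on the opposite strand, which end 175, 162 and 30 bases before the start. Trem2 held 1, which ends 35 bases before the start, and these letters are not in this window of Cd163. Of the other members, Csf1 held no match and Apoe held 1 in 2 of its 3 start sites' stretches, while no stretch of Csf1r or Msr1 was used, so no called gene stands beside these matches. A match occurs in 23.3% of 32851 RefSeq promoter stretches of the same length. The letters TGANTCA, the core bound by AP-1 and, within longer MARE sites, by BACH2 with small MAF partners (C or G at N in the usual form), were also searched on both strands, with no overlap with the first motif. They were found in Trem2 alone of the 3 (TGAATCA, 9 to 3 bases before the start) and in 6.75% of all stretches. A match is a description of the sequence and not a site of binding.

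The genes whose pattern was most like that of each member were found by Pearson r over the 10 arrays after subtraction of each group's mean; these are descriptions that share arrays and tumor composition. Mrc1 varied most like Adap2 (r = 0.982), Axl, a phagocytic receptor tyrosine kinase gene (0.979), and Maf, a transcription factor of resident macrophages (0.964). Without the 2 arrays on which Mrc1 lay farthest from its median, the values were 0.970, 0.957 and 0.964 over 8 arrays. Cd163 was most like Cd84 (0.934), Gm31718 (0.918) and Maf (0.916), but here r dropped to 0.713, 0.637 and 0.692 without its 2 farthest arrays. Csf1r was most like Cmip (0.979), Sema4a (0.978) and Scaf8 (0.978), and Msr1 most like the complement receptor gene C3ar1 (0.969), the chemokine receptor gene Ccr7 (0.964) and Lrp4 (0.960). Csf1 was most like Ltb4r1, a leukotriene receptor gene (0.938), Mxd1 (0.927) and 4933431G14Rik (0.920). The nearest genes of Trem2 were Cdk5rap3 (0.947), Utp14a (0.947) and 2310043M15Rik (0.935), and those of Apoe were Mybl2 (0.927), Dynlrb1 (0.923) and Cited1 (0.908). Those of Il34 were Zfp873 (0.928), Avpr2 (0.911) and Ung (0.909), at a level not shown to be above background.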

How the data were processed

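RNA abundance was measured on 1-colour Affymetrix 3′ arrays. The deposited table holds log2 expression values; per the submitters' processing notes the authors used RMA (background correction, quantile normalization and probe summary) and Partek, with versions not given in the sources used here. Values were used as deposited. Of 45101 probe sets, 34945 had 1 gene symbol, 932 several and 9160 none, and 64 were controls. Each gene was read from its brightest probe set (mean over 10 arrays), and no symbol changed on update through gene IDs (assembly GRCm38.p6). Genotype was the only term of the linear model in limma 3.58.1 (R 4.3.3, empirical Bayes moderation, 2-sided, 10 arrays), with Benjamini-Hochberg adjustment over 18193 genes. The fit was tested on simulated data.

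Members and the 17 gene lists were chosen with earlier results of these data known. Of 172 listed genes, 163 were measured, and the other 9 are not analysed here. Named genes were the members, the 2 called genes with the smallest adjusted p in each direction of each list (1 for cell marker lists), and the 3 genes most like each member. Exact permutation tests covered 7 and 8 differences because Spp1 had no probe set. Alternatives were the mean of probe sets, a dim-gene filter, median centring, repeated quantile normalization, trended robust moderation, array weights, a replicate block, an Xist term, a melanocyte covariate and leaving out each array. Another promoter motif that was searched is not reported here.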

Additional observations from a re-analysis of the deposited data

Results flagged for a closer look

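Arrays that stood apart within a group of 5 were looked for among all values of the members and named genes by Dixon's gap test; chance flags about 1 in 20 independent groups, and 13 of 150 were marked. In 9 of the 13 the array was Bach2-deficient replicate 1. These are not independent: 6 of the 9 are the Csf1r probe sets and the 3 genes chosen as most like Csf1r, so the chance rate is no measure for their number. It was the lowest of its group for all 3 Csf1r probe sets, at 11.62 on 1419872_at (next 12.25), 9.48 on 1419873_s_at (next 10.54) and 7.80 on 1423593_a_at (next 8.99). It was also the lowest for Msr1 on 1425434_a_at (9.28, next 10.13), Csf2rb (11.71, next 12.47), Ccr2 (11.80, next 12.26), Cmip (10.77, next 11.42), Sema4a (9.66, next 10.64) and Scaf8 (9.11, next 9.496). The same array had a melanocyte marker mean of 12.4, against 11.7 to 12.1 on the other Bach2-deficient arrays, and a macrophage marker mean of 10.7, against 11.5 on each of the others. Without it the Csf1r change was 2.08, in place of 1.93, and the Csf1 difference passed.

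Wild-type replicate 1 stood apart for 3 genes. It was the highest of its group for Csf1 on 1425154_a_at (7.34, next 6.43) and the lowest for Cd163 (5.56, next 8.08) and for Gm31718 (5.59, next 6.69), one of the genes most like Cd163. Bach2-deficient replicate 2 was the highest of its group for Utp14a (8.95, next 8.67).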

How the results depend on the processing

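Csf1r rose in all 19 alternative fits and Msr1 in 18, where the change with the Xist term rests on 1 Bach2-deficient array, replicate 2. The exception for Msr1 was the melanocyte covariate (1.01, limma adjusted p = 0.0866), where 1 member rose. With array weights 4 members rose, with Csf1 at 0.94 and Mrc1 at 0.61. With the replicate number as a block 3 rose, Mrc1 among them (0.49, limma adjusted p = 0.0272). The block called 2842 genes that rose and 2110 that fell, in place of 2962 and 2264. Deviations of same-numbered arrays correlated by 0.006 to 0.323, not every one over 0.1, and 2 of 5 Bach2-deficient arrays correlated best with their own number, so the numbers were not taken as pairs. No member fell in any fit. With 1 array left out, the change of Csf1 ran from 0.62 to 1.05, and 3 members rose without Bach2-deficient replicate 1, against 2 in the other such fits. Il34, Cd163, Trem2 and Apoe passed in none of the alternative fits that held them, and the dim-gene filter left out Il34.

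All genes that rose numbered 1030 with the Xist term and 483 with the covariate; those that fell numbered 387 and 192, 4134 with median centring, and 1388 to 2807 with 1 array left out, with the low counts without Bach2-deficient replicates 2 (1388) and 4 (1447). The cause was not tested. Over all lists, 74 genes rose and 20 fell, against 41 and 5 with the Xist term and 15 and 3 with the covariate. Of the 35 named list genes, 22 lost their call with the covariate and 6 with the mean of probe sets, and 0 turned their sign at a call. Counts with the Xist term are left out, since its changes rest on Bach2-deficient replicate 2 alone.

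The differences were run with the mean of probe sets, median centring, repeated quantile normalization, 1 array left out and, for the markers, their median, 13 and 14 settings in all. They were not run with the Xist term, the covariate, array weights or the block. In those settings all 7 differences to Csf1r were called, and Mrc1, Trem2, Apoe and Il34 relative to the markers, where Il34 is dim. For genes that stayed near level these calls follow from the rise of Csf1r or of the markers. The mean of probe sets called Csf1r (0.51) and lost Msr1 (-0.035), while the median of the markers gave 0.06 for Csf1r, not called, and -0.75 for Msr1, called. With 1 array left out the difference ran from -0.95 to -0.66 for Csf1, -1.96 to -1.40 for Cd163 and -0.55 to -0.39 for Msr1, each called in 3 of 10, and from 0.22 to 0.45 for Csf1r, called without wild-type replicate 3. An exact test with 1 array fewer has a larger smallest p.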
